A study of Mus musculus with 8 samples.

Results

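The nonagouti gene *a*, its neighbours on chromosome 2 and the genes of the melanocortin system were followed in whole uteri of mice at postnatal day (PD) 10. There were 10 genes: *a* itself, the neighbours *Ahcy*, *Itch* and *Eif2s2*, the receptors *Mc1r*, *Mc4r* and *Mc5r*, the hormone precursor *Pomc*, and the accessory genes *Atrn* and *Mgrn1*. They were chosen by symbol from 27179 genes in the count data. *Mc1r* fell below the expression filter, so 9 of the 10 were among the 16658 genes tested. *a* was picked because of its difference between the genotypes in these same libraries, so its values are given as a description without a test.

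Uteri of 4 control mice carried floxed *Ezh2* alleles without Cre (Ezh2 f/f), and uteri of 4 conditional knockout (cKO) mice carried the same floxed alleles together with *Amhr2*-Cre (Ezh2 f/f; Acre). *Ezh2* encodes the methyltransferase of polycomb repressive complex 2, which marks histones at silenced genes. *Amhr2*-Cre acts in the mesenchymal lineage of the uterus, not in its epithelium, and also in the ovary and oviduct, so undeleted cells stayed in every cKO sample. RNA of the whole organ was sequenced as polyadenylated transcripts, at 25287141 to 36685807 counts per library. The mice were of a mixed C57BL/6 and 129SvEv background. These strains are known to carry different alleles of *a*, and the allele of each mouse and the litters are not given in the sources used here.

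Agouti signaling protein, the product of *a*, is a secreted antagonist of melanocortin receptors. In hair follicles it blocks MC1R on melanocytes, which then make yellow instead of black pigment, and when it is made throughout the body it also blocks MC4R, the receptor that restrains feeding. The activating ligands, the melanocyte-stimulating hormones and ACTH, are cut from the POMC precursor. Attractin and mahogunin, encoded by *Atrn* and *Mgrn1*, are needed for agouti to act in skin.

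The *a* gene (Entrez 50518) lay at chr2:154950599-155051012 on the forward strand of GRCm38, with *Eif2s2* 57693 bases before it and *Ahcy* 8298 bases after it, both on the reverse strand. The 300 bases around the start sites of these 3 genes, 250 before and 50 after the start in RefSeq on GRCm38.p6, are shown because the genes stand side by side and only *a* differed widely between the genotypes. Capitals mark each CG dinucleotide, the letters searched, which read the same on both strands. The windows are chr2:155013320-155013619 (forward) for *a*, chr2:154892857-154893156 (reverse) for *Eif2s2* and chr2:155074448-155074747 (reverse) for *Ahcy*.
a: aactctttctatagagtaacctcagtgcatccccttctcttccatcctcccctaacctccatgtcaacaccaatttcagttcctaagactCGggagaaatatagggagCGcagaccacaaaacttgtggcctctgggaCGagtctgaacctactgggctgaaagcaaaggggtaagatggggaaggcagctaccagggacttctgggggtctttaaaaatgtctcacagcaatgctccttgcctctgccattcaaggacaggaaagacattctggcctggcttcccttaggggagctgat
Eif2s2: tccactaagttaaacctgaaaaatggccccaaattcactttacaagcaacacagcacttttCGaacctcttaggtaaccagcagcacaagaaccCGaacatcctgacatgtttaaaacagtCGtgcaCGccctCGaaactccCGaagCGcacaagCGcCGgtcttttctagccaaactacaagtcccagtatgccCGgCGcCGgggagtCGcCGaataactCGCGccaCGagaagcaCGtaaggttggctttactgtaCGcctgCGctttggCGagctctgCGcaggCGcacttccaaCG
Ahcy: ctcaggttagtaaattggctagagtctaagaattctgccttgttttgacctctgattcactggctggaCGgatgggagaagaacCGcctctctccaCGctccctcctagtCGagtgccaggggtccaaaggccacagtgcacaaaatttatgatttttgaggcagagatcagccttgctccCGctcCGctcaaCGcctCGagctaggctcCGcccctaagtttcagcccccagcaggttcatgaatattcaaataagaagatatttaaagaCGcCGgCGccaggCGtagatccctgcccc

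The *a* window held 3 CG dinucleotides, the *Ahcy* window 13 and the *Eif2s2* window 24. Among 32851 RefSeq promoters of the same length, 94.6% held at least 1 CG, the median was 7, and 31.4% held 3 or fewer. Of the other members with a window in the RefSeq table used, *Mc1r* had 4, *Mgrn1* 13, *Pomc* 18 and *Atrn* 34. The *a* window belongs to 1 of several starts and lies inside the gene interval given above, not at its first base, whereas the *Eif2s2* and *Ahcy* windows lie at the gene's end where transcription starts. These counts describe the sequence only, since neither methylation nor histone marks were measured here. GENCODE M21 lists 6 transcripts of *a* with 6 start positions, from 154791402, inside the upstream gene *Raly*, to 155047615. The counts were summed over the gene, so they do not show which start was used. RefSeq places the noncoding RNA gene Gm39965 inside *a*, and with the strand setting of the counting not given, reads from it could have entered the *a* counts.

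*Ezh2* itself, whose exons 14 and 15 are removed by Cre, was at 49.4, 40.5, 54.7 and 35.4 CPM (counts scaled to the library's total and edgeR's TMM factor) in controls and 30.4, 38.0, 40.7 and 38.0 CPM in cKO uteri. The genotypes overlapped, with a log2 fold change of -0.29 and a standard error (SE) of 0.13 (adjusted p = 0.247, edgeR's quasi-likelihood test). Counts summed over the gene include transcripts that only lack those exons, and RNA of cells without Cre.

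*a* was barely detected in control uteri and clearly detected in every cKO uterus. The controls had 14, 9, 13 and 23 counts, or 0.441, 0.348, 0.464 and 0.631 CPM. The cKO libraries had 152, 162, 251 and 141 counts, or 5.90, 5.42, 7.73 and 4.94 CPM. All 4 cKO libraries lay above all 4 controls, and the lowest cKO library was 7.82-fold above the highest control. Among all genes tested, 5.90% had every cKO library above every control; the choice of *a* used this contrast, so nothing is read from that share. The means were 0.471 ± 0.118 and 6.0 ± 1.22 CPM (SD, n = 4 each). The fitted log2 fold change was 3.64 (SE 0.22). Controls spanned 1.81-fold among themselves and cKO libraries 1.57-fold. The gap between the genotypes was wider, which is a description only, since *a* was chosen for it.

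Expression was measured in whole uteri, so more cells with *a* mRNA and more *a* mRNA per cell cannot be told apart. Since the allele of *a* in each mouse is not given, a difference between the groups in that allele and the difference in Cre cannot be told apart either. The uterine marker sums overlapped between the genotypes, with 815 to 988 CPM in controls and 907 to 1123 CPM in cKO uteri for 4 epithelial genes, 2432 to 3313 and 2582 to 3293 CPM for 5 stromal genes, and 5453 to 7283 and 6206 to 7032 CPM for 4 smooth muscle genes. The stromal sum was mostly *Col1a1*, with means of 1556 CPM in controls and 2054 CPM in cKO uteri (edgeR's adjusted p = 0.129). In the same list *Hoxa10* and *Hoxa11* were lower in cKO uteri past edgeR's adjusted p of 0.05. Markers of the cells that agouti is best known from were low. The 6 melanocyte genes summed to 1.61 to 2.14 CPM in controls and 1.82 to 2.37 CPM in cKO uteri, nearly all of it from *Pmel*, while *Tyrp1*, an enzyme of pigment synthesis, had 0 counts in all 8 libraries. The 5 hair follicle genes summed to 2.63 to 4.10 and 2.99 to 3.45 CPM, mostly from *Tchh*, with *Krt27* and *Krt71* at 0, and the 7 epidermal genes to 9.37 to 11.3 and 9.54 to 13.7 CPM, with *Krt10* the highest of them and *Dsg1a* at 0. None of these 3 skin sums separated the genotypes. Within the epidermal list *Krt5*, a basal keratin, had 0.347 to 1.18 CPM in controls and 4.66, 1.10, 0.585 and 4.34 CPM in cKO uteri, which overlapped the controls (adjusted p = 0.177). The sums also overlapped for skeletal muscle, at 43.5 to 74.5 and 38.9 to 60.9 CPM, mostly from *Acta1*. The other 5 muscle genes had higher means in cKO uteri. *Myh3*, embryonic myosin (0, 1, 4 and 4 counts in controls and 0.370 to 1.91 CPM in cKO uteri, so that it entered the test through the cKO libraries alone), and *Tnnt3*, a troponin (1.74-fold), passed the adjusted p, *Ckm* did not (2.75-fold, adjusted p = 0.0903), and 2 were below the filter, *Myh8* (0.0812 and 0.501 CPM) and *Myod1* (0 counts in each control and 7, 5, 4 and 4 in cKO uteri). Their part in the result for *a* was not tested. The ovary sum, 48.8 to 55.3 and 39.5 to 52.8 CPM, was nearly all *Foxl2*, and *Amh*, *Zp3* and *Nr5a1* were each at most 0.167 CPM.

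Fat markers were high in 3 of the 4 cKO libraries, although 0 of the 5 tested fat genes passed (adjusted p = 0.0573 to 0.0897). The 7 fat cell genes, which include *Adipoq* and *Plin1*, summed to 1.07 to 3.17 CPM in controls and to 92.1, 217 and 95.7 CPM in cKO replicates 1, 2 and 3, but to 2.00 CPM in cKO replicate 4. That sum was inside the control range, although *Fabp4* in it, at 1.61 CPM, was above the highest control, 1.43 CPM. In the same library *a* was 10.5-fold above the control mean. The other 3 cKO libraries had 12.5-, 11.5- and 16.4-fold. Over all genes cKO replicate 4 differed, in chi-square per gene, by 15.5, 20.4, 12.1 and 10.2 from control replicates 1 to 4 and by 15.2 to 17.1 from the other cKO libraries, so 2 controls were nearer to it than its own group. Fitted with cKO replicate 4 as the lone cKO library, whose spread is then assumed to be that of the others, the log2 fold change of *a* was 3.36 (SE 0.30).

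**Figure D1:**
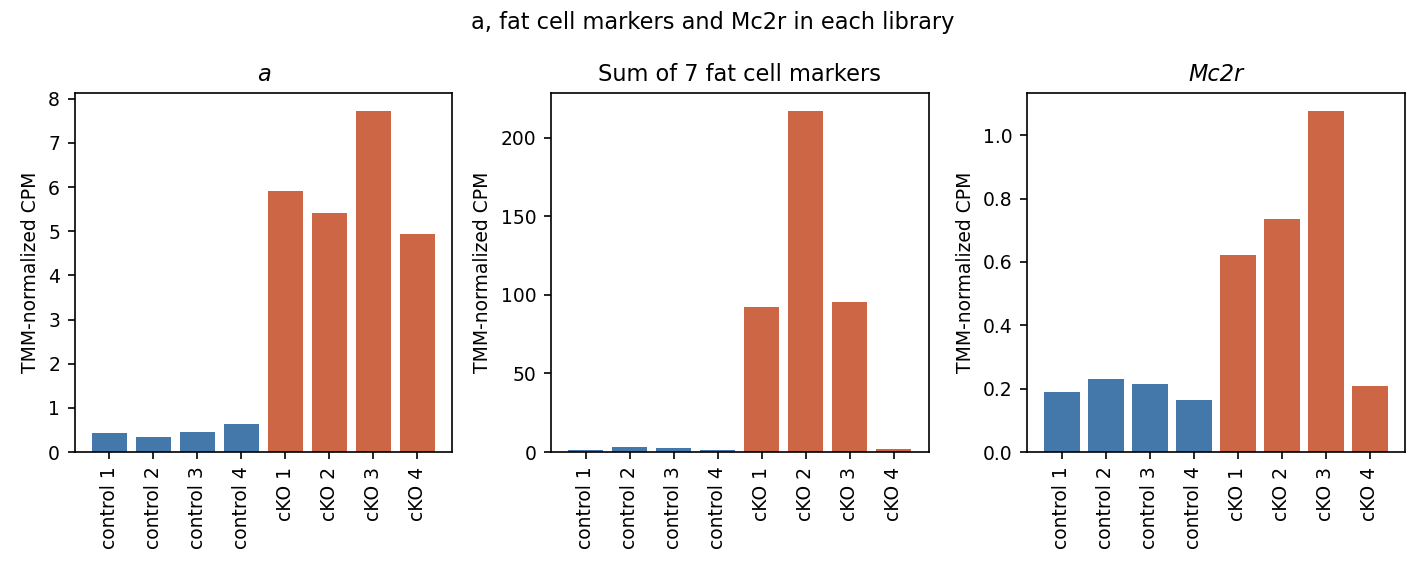
Level of *a*, summed level of 7 fat cell genes and level of *Mc2r* in each of the 8 libraries, in CPM. *a* was between 4.94 and 7.73 CPM in all 4 cKO libraries, while the fat sum was 2.00 CPM and *Mc2r* 0.21 CPM in cKO replicate 4, near the control libraries.

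None of the 3 chromosome 2 neighbours passed the test, where 5.34% of all genes did. At an unadjusted p under 0.05 there were 0 of the 3, and 3535 of all 16658 genes. *Ahcy* encodes S-adenosylhomocysteine hydrolase, which clears the by-product of methylation reactions. It was at 66.6, 60.1, 74.3 and 78.6 CPM in controls and 75.7, 66.4, 70.8 and 80.9 CPM in cKO uteri. The ranges overlapped, and the log2 fold change was 0.07 (SE 0.09, adjusted p = 0.678), with a 95% interval from -0.12 to 0.26 that is narrow beside the difference of *a*. *Eif2s2* encodes the beta subunit of the translation initiation factor eIF2. It had 160, 138, 157 and 160 CPM in controls and 135, 156, 152 and 160 CPM in cKO uteri, which also overlapped, with a log2 fold change of -0.03 (SE 0.07, 95% interval -0.18 to 0.12, adjusted p = 0.847). *Itch*, a ubiquitin ligase gene named after the itching of mice that lack it, starts 82469 bases beyond *a*. Its libraries had 132, 122, 129 and 134 CPM in controls and 115, 116, 119 and 134 CPM in cKO uteri. The log2 fold change was -0.10 (SE 0.06, 95% interval -0.23 to 0.04, adjusted p = 0.395), so no difference was shown. These intervals are not adjusted for the number of genes tested.

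**Figure D2:**
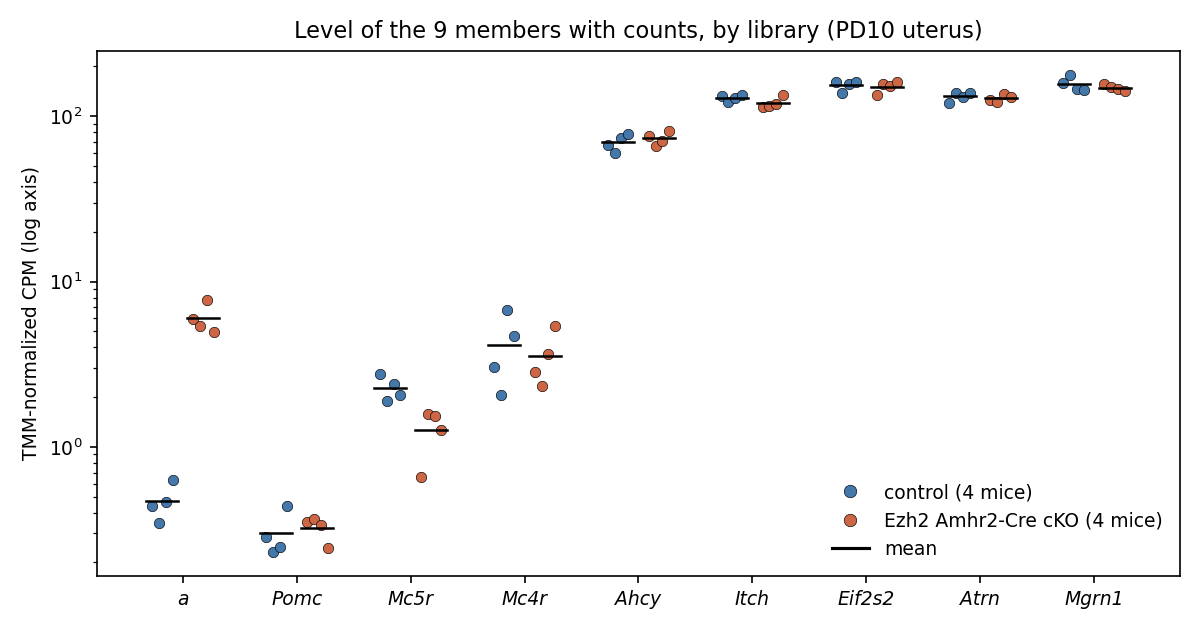
CPM on a log scale of the 9 members with counts in each of the 4 control and 4 cKO libraries (points), with group means (lines). Only *a* and *Mc5r* have groups that do not overlap, *a* with every cKO library above and *Mc5r* with every cKO library below the controls.

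The 2 genes on either side of *a* were completed by *Raly* and 2310005A03Rik. *Raly*, an RNA-binding protein gene best known from the lethal yellow deletion that joins its promoter to *a*, had 256 ± 10.1 CPM in controls and 244 ± 21.1 CPM in cKO uteri (SD, 4 libraries each, log2 fold change -0.07, SE 0.07, adjusted p = 0.581). 2310005A03Rik had 0 counts in all 8 libraries. Within 0.5 Mb of either end of *a*, 18 genes were tested and 0 passed edgeR's adjusted p of 0.05. At an unadjusted p under 0.05 there were 3 of the 18, and 3535 of all 16658 genes. Within 1 Mb, 35 of 51 genes were tested and 1 passed, which is 2.86%, beside 5.34% of all genes tested. The log2 fold changes of these 35 genes ran from -0.16 to 1.13, with a median of 0.03, against a median of 0.00044 for all genes. In 3 of the 35 every cKO library was above every control and in 1 every cKO library was below, where these shares over all genes were 5.90% and 6.42%.

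The gene that passed was *Gdf5*, a ligand of the bone morphogenetic protein (BMP) family known from joint formation, 890011 bases beyond *a*. It was at 2.65, 4.14, 2.53 and 2.25 CPM in controls and 7.22, 5.82, 5.94 and 4.80 CPM in cKO uteri, without overlap. Its log2 fold change was 1.05 (SE 0.20, adjusted p = 0.00851). With the fat marker sum as a covariate it was 0.69 (adjusted p = 0.455), so the call was lost. Calls over all genes fell from 889 to 73 in that fit. With cKO replicate 4 as the lone cKO library the log2 fold change of *Gdf5* was 0.75. The fat sum was high only in the other cKO libraries, so both fits rest largely on cKO replicate 4 and are not separate checks. Between *a* and *Gdf5* lay further tested genes, none of which passed.

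**Figure D3:**
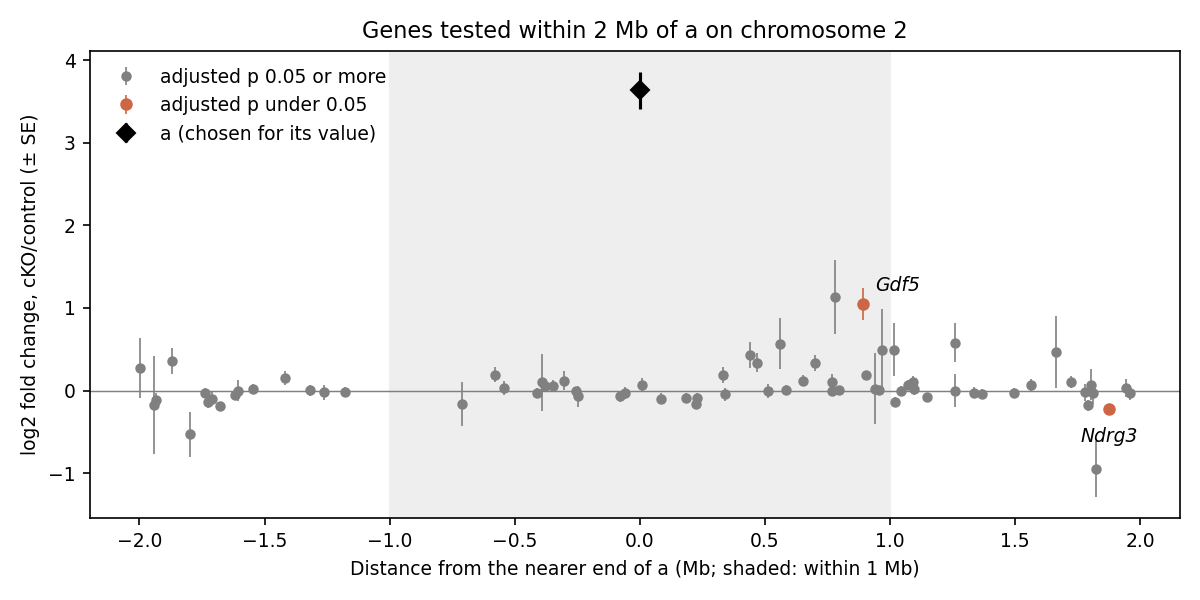
Log2 fold change (cKO over control, with SE) of each gene tested within 2 Mb of *a*, by distance from *a* in Mb. *a* stands at 3.64, *Gdf5* at 1.05, and the nearest neighbours lie close to 0. The 74 genes besides *a* ran from -0.95 to 1.13. Of these, 2 (2.70%) passed edgeR's adjusted p of 0.05, 1 higher and 1 lower in cKO uteri, beside 5.34% of all genes.

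*Mc1r*, the receptor on melanocytes, had 0 counts in all 8 libraries, that is 0 of 238804654 counts, which allows a level of up to 0.0126 CPM by counting error alone. *Mc4r* was at 3.06, 2.05, 6.74 and 4.69 CPM in controls and 2.83, 2.34, 3.63 and 5.36 CPM in cKO uteri. The genotypes overlapped throughout, and the controls alone differed up to 3.29-fold. The log2 fold change was -0.23 (SE 0.36, 95% interval -1.03 to 0.57, adjusted p = 0.759), and it was 0.10 (SE 0.32) without control replicate 3, so no direction was shown.

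*Mc5r*, the melanocortin receptor known from sebaceous and other exocrine glands, was lower in every cKO library. It was at 2.74, 1.90, 2.39 and 2.06 CPM in controls and at 0.660, 1.57, 1.54 and 1.26 CPM in cKO uteri, so the lowest control lay above the highest cKO library. Among the 8 members other than *a* that were tested, 1 had non-overlapping groups, and over all genes that share was 12.3%. The log2 fold change was -0.84 (SE 0.25, 95% interval -1.38 to -0.30). The unadjusted p was 0.00537 by edgeR's quasi-likelihood test across all genes, and the adjusted p of 0.0737 missed the threshold. DESeq2 gave an adjusted p of 0.0305, and the range over the 18 alternatives was 0.0305 to 0.597. *Mc5r* is therefore the one member whose call depended on the tool.

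*Pomc* was near the limit of detection, with 9, 6, 7 and 16 counts in controls and 9, 11, 11 and 7 counts in cKO uteri. These are 0.301 ± 0.0945 and 0.325 ± 0.0548 CPM (SD, n = 4 each), with overlapping libraries and a log2 fold change of 0.08 (SE 0.35, 95% interval -0.67 to 0.83, adjusted p = 0.921). Such counts could not show a change of moderate size. The 4 pituitary marker genes summed to at most 0.302 CPM in any library.

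Both accessory genes were well expressed in both genotypes. *Atrn*, which encodes attractin, a membrane protein that binds agouti, was at 132 ± 8.27 CPM in controls and 129 ± 6.58 CPM in cKO uteri (SD, 4 libraries each, log2 fold change -0.04, SE 0.06, 95% interval -0.17 to 0.10, adjusted p = 0.770). *Mgrn1*, which encodes the ubiquitin ligase mahogunin, was at 157 ± 15.8 and 149 ± 6.73 CPM (SD, 4 libraries each, log2 fold change -0.08, SE 0.07, 95% interval -0.23 to 0.08, adjusted p = 0.570). The libraries overlapped for both genes. Of the 8 members tested besides *a*, 0 passed edgeR's adjusted p of 0.05, beside 5.34% of all genes. *Mc5r* was the 1 member with an unadjusted p under 0.05, where 3535 of all 16658 genes had one, and the 1 member that passed with DESeq2, which called 1506 of the 16658. Their median log2 fold change was -0.06.

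Levels between genes were compared per kilobase of exon (CPM per kb, exon lengths from GENCODE M21). In controls the order was *Mgrn1* at 30.9, *Ahcy* at 24.9, *Eif2s2* at 22.8, *Itch* at 13.3, *Atrn* at 9.98, *Mc4r* at 1.48, *Mc5r* at 0.582, *Pomc* at 0.229 and *a* at 0.107 CPM per kb, with *Mc1r* at 0. Of these neighbours in the order, *Ahcy* (21.4 to 28.0) and *Eif2s2* (20.4 to 23.7) overlapped between libraries, and the other pairs did not. In cKO uteri *a* moved to 1.36 CPM per kb (1.12 to 1.75), inside the range of *Mc4r* (0.836 to 1.91) and above all libraries of *Mc5r* (0.169 to 0.403) and *Pomc* (0.186 to 0.279).

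The wider melanocortin and pigment pathway was read from 6 lists of 52 genes besides *a*, of which 40 were tested. The lists were drawn up with earlier results of these data known. Of the 40, 8 passed edgeR's adjusted p of 0.05 (20.0%, beside 5.34% of all genes), 3 higher and 5 lower in cKO uteri (2.62% and 2.71% of all genes), 3 of them also past 2-fold (1.30% of all genes), and the median log2 fold change of the 40 was -0.04. The count was 3 with the fat marker sum as a covariate, where calls over all genes fell from 889 to 73 of 16658. It was 5 to 9 with 1 library left out (5 without control replicate 1 or 3, or without cKO replicate 1, 2 or 3). In those fits 393 to 1773 of all genes passed, so the fall was not particular to the lists. None of 5 tested ligand and processing genes passed (0 at an unadjusted p under 0.05), among them *Agrp*, the agouti-related antagonist of the brain (log2 fold change 0.43, SE 0.54, adjusted p = 0.689), and *Pcsk1*, a protease that cuts POMC (-0.17, SE 0.33, adjusted p = 0.804). Likewise 0 of 5 accessory genes passed (0 at an unadjusted p under 0.05, where 3535 of all 16658 genes had one).

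Of the 3 receptor genes tested, *Mc2r*, the ACTH receptor, passed, where 5.34% of all genes did. It had 6 counts in each control and 16, 22, 35 and 6 counts in the cKO libraries, or 0.189, 0.232, 0.214 and 0.165 against 0.621, 0.736, 1.08 and 0.210 CPM. Its cKO replicate 4 lay within the control range. The log2 fold change was 1.74 (SE 0.45, adjusted p = 0.0457), and 0.22 (adjusted p = 0.977) with the fat marker sum as a covariate. The call was lost in 9 of 16 alternatives, among them limma-voom (1.49, adjusted p = 0.114) and the omission of any one library other than cKO replicate 4 (highest adjusted p = 0.137, log2 fold change 1.38 to 1.81). *Mrap*, which carries MC2R to the cell surface and is known from adrenal and fat cells, was not tested. It had 0, 0, 0 and 1 counts in controls and 30, 68, 37 and 0 counts in cKO uteri, so both genes were high in the same 3 libraries as the fat markers; their part in these values was not tested.

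Of 11 genes of cyclic AMP signalling, the relay below melanocortin receptors, 1 passed, where 5.34% of all genes did. This was *Adcy7*, an adenylyl cyclase, at 57.4, 57.1, 50.7 and 47.6 CPM in controls and 34.0, 35.3, 32.2 and 33.1 CPM in cKO uteri, without overlap. Its log2 fold change was -0.66 (SE 0.07, adjusted p = 0.000249), and -0.68 with cKO replicate 4 as the lone cKO library. *Gnas*, *Creb1* and the 4 protein kinase A subunit genes did not pass.

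Of 9 pigment cell genes tested, 2 passed, in opposite directions (5.34% of all genes passed). *Mitf*, the transcription factor that specifies melanocytes and is also made in other cells, was at 57.3, 59.6, 65.6 and 58.2 CPM in controls and 30.2, 33.1, 36.2 and 36.2 CPM in cKO uteri. The groups were far apart, with a log2 fold change of -0.83 (SE 0.07, adjusted p = 5.86e-05), and *Mitf* passed under all 18 alternatives. *Sox10*, a transcription factor of melanocytes and Schwann cells, rose from 1.31 ± 0.333 to 2.46 ± 0.607 CPM (SD, 4 libraries each, log2 fold change 0.92, SE 0.23, adjusted p = 0.0407), a call that was lost in 8 of 18 alternatives, over which the log2 fold change was 0.46 to 1.09. It was 0.46 (adjusted p = 0.807) with the fat marker sum as a covariate, a fit in which 73 of all 16658 genes passed. With cKO replicate 4 as the lone cKO library the log2 fold change of *Sox10* was 0.47. The melanocyte genes *Tyr*, *Tyrp1*, *Dct*, *Mlana*, *Slc45a2* and *Oca2* were below the filter. *Kit* and *Kitl*, the receptor and ligand that guide melanocyte precursors, had log2 fold changes of -0.04 (adjusted p = 0.889) and -0.01 (adjusted p = 0.935).

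Of 7 tested genes of the skin list, 4 passed, where 5.34% of all genes did. Only *Nog* of these passed with the fat marker sum as a covariate, when 73 of all 16658 genes did. The list is not particular to skin, since the paper stained CRABP1 in uterine stroma. *Nog*, a BMP antagonist, fell from 7.71 ± 0.800 to 2.64 ± 0.531 CPM (SD, 4 libraries each, log2 fold change -1.54, SE 0.16, adjusted p = 0.000131), and passed under all 18 alternatives. *Lef1*, a transcription factor of WNT signalling, and *Bmp4*, a BMP ligand, fell by 0.54 (SE 0.10, adjusted p = 0.00541) and 0.46 (SE 0.09, adjusted p = 0.00968) on the log2 scale. With the fat marker sum as a covariate both calls were lost (*Lef1* -0.61, adjusted p = 0.130, and *Bmp4* -0.54, adjusted p = 0.149). With cKO replicate 4 as the lone cKO library the log2 fold changes were -0.54 and -0.52. In both fits the fold changes were about as large as in the main fit. *Crabp1*, a retinoic acid binding protein gene, rose from 33.7 ± 13.2 to 86.7 ± 10.5 CPM (SD, 4 libraries each, log2 fold change 1.36, SE 0.27, adjusted p = 0.0331), a call lost in 8 of 18 alternatives, over all of which the log2 fold change was 1.18 to 1.58. *Tbx15*, a regulator of dorsal and ventral coat pattern, was close to the filter and had a log2 fold change of -0.49 (SE 0.59, adjusted p = 0.665).

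**Figure D4:**
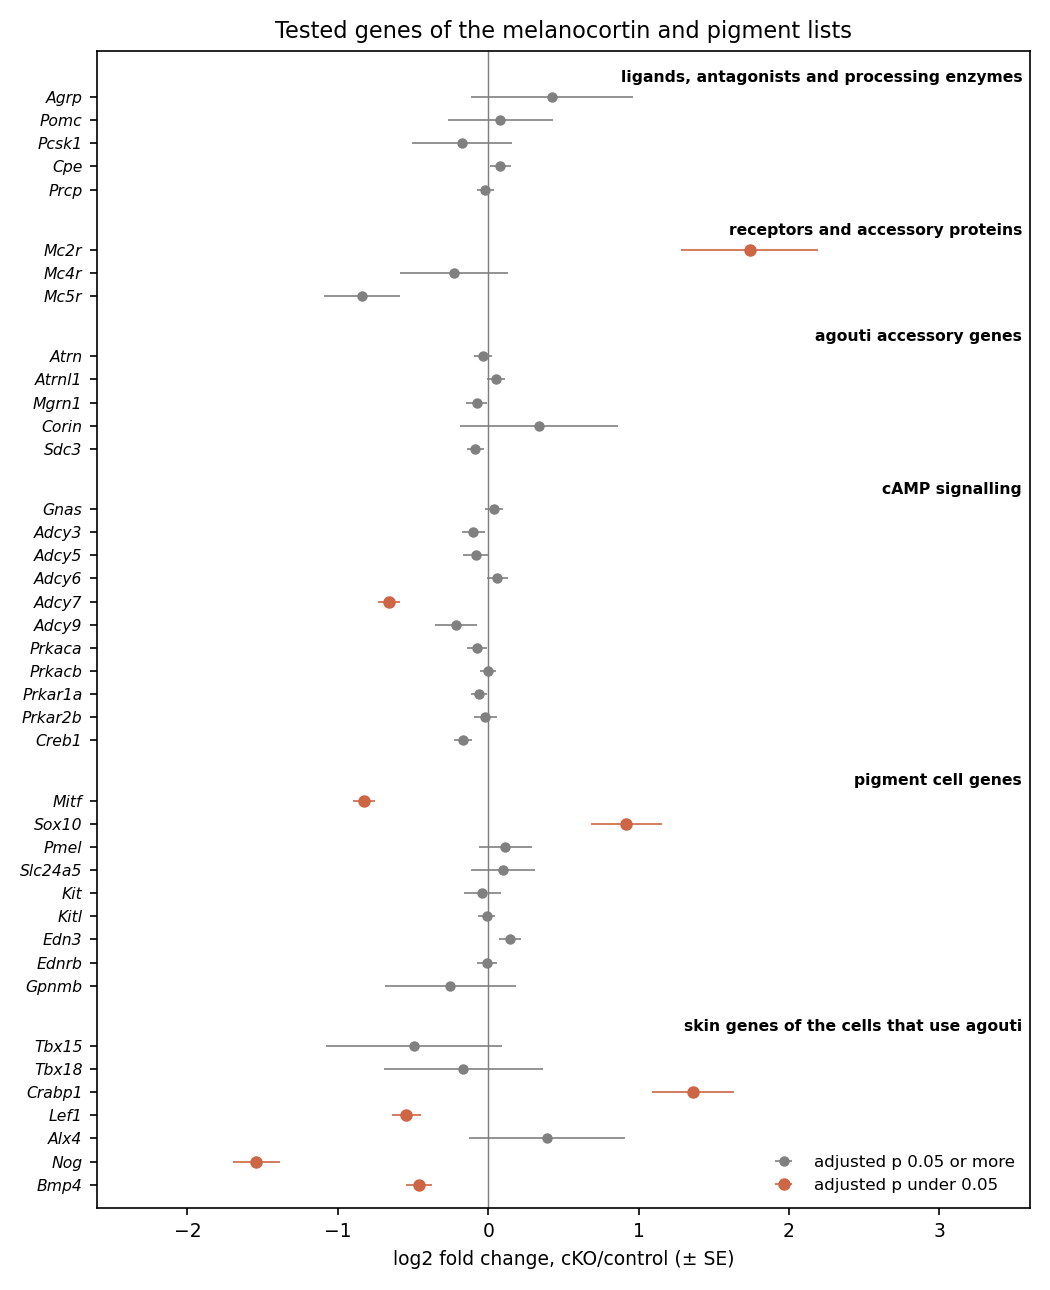
Log2 fold change (cKO over control, x axis) with SE of each of the 40 tested list genes other than *a*, grouped by list, in orange where edgeR's adjusted p was under 0.05 and in grey otherwise. *Mc2r* (1.74) and *Crabp1* (1.36) are the highest, *Nog* (-1.54) the lowest, and *Mc5r* (-0.84) lies beside *Mitf* (-0.83) without passing the threshold.

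The genes whose levels ran most like *a* over the 8 libraries were found among 14454 genes with a mean of at least 1 CPM, by Pearson's r of log2(TMM-scaled CPM + 0.1). They were *Foxp2* (r = 0.998), *Fndc3c1* (0.989), *Col6a5* (0.988), *Slit2* (0.988) and *Lrrc10b* (0.987). The libraries form 2 genotype groups, so these values mostly repeat the difference between the genotypes and are a description. With each genotype's mean removed, r was 0.954 for *Foxp2* and 0.664 to 0.759 for the other 4, which is no separate support, since the genes were picked over the same libraries.

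*Foxp2*, a forkhead transcription factor known from brain and lung, had 5.30, 4.91, 5.56 and 6.45 CPM in controls and 13.4, 13.9, 15.3 and 12.7 CPM in cKO uteri. Its highest control (replicate 4) and its highest and lowest cKO libraries (replicates 3 and 4) were those of *a* as well. *Fndc3c1*, like *a*, was nearly off in controls, at 0.694, 0.309, 0.392 and 0.659 CPM against 5.28, 4.12, 5.64 and 4.73 CPM. *Col6a5*, a collagen VI chain gene, was at 6.18, 7.31, 7.13 and 8.01 CPM against 26.6, 29.8, 36.6 and 21.4 CPM. *Slit2*, a secreted guidance ligand of axons, and *Lrrc10b* had smaller log2 fold changes, of 0.81 and 0.77. None of the 5 lay on chromosome 2, and the start windows of the 4 with one in the RefSeq table used held 10 to 34 CG dinucleotides, beside the 3 of *a*.

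**Figure D5:**
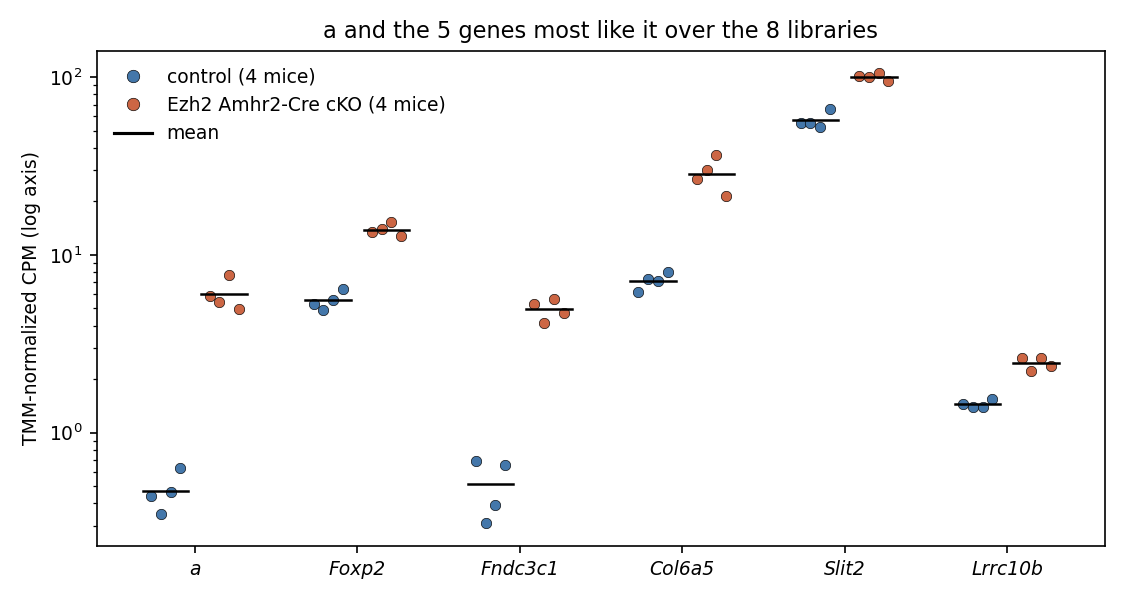
CPM of *a* and of the 5 genes most like it in each of the 8 libraries (points, in replicate order) with group means (lines), on a log axis, to be compared within a gene. In both *a* and *Foxp2*, cKO replicate 3 is the highest and cKO replicate 4 the lowest cKO library.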

How the data were processed

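Total RNA of 8 whole uteri at PD10, 4 control and 4 *Ezh2* *Amhr2*-Cre cKO, was sequenced from TruSeq stranded mRNA libraries. Per the labels and the study's methods, the authors trimmed reads (Trimmomatic), checked them (FastQC), aligned them to GRCm38 (HISAT2) and counted reads per gene (featureCounts); versions, annotation and strand setting are not given in the sources used here. The deposited raw counts per gene and library were used. Per-library totals were 25287141 to 36685807, so 3 counts equal 0.0818 to 0.119 CPM. Of the authors' comparison table only gene identifiers and symbols were read, not its fold changes and p-values, and their normalized counts were not used.

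Groups came from the genotype labels. Genes with CPM over 0.2 in at least 4 libraries (16658) were fitted with edgeR 4.0.16 in R 4.3.3 (TMM, quasi-likelihood F test, robust), with Benjamini-Hochberg adjustment over all of them. SE was taken from the log2 fold change and F. Intervals and floors cover the spread between these libraries or counting error only, and nothing says that the mice came from separate litters. No library was a repeat of another (chi-square per gene 6.51 to 25.6 over 28 pairs). The members and lists were chosen with earlier results of these data known. Named genes were the members, list genes and genes within 1 Mb of *a* past adjusted p, the 2 genes on each side, the 5 genes most like *a*, and markers that bear on a result. Alternatives were DESeq2 1.42.0, limma 3.58.1 (voom), other scalings and filters, a replicate block, a fat marker covariate and left-out libraries. Scripts were tested on simulated data. Windows of RefSeq sequence matched 7 of 10 members.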

Additional observations from a re-analysis of the deposited data

Results flagged for a closer look

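Of 36 sets of 4 libraries of 1 gene and 1 genotype, 1 held a library far from the other 3 by Dixon's criterion, which chance alone meets in about 1 of 20 sets. *Eif2s2* was at 137.7 CPM in control replicate 2, while the next library of that group was at 157.0 CPM, a gap of 0.857 of the whole range. Its cause was not tested.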

How the results depend on the processing

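The log2 fold change of *a* stayed between 3.36 and 3.82 under all 19 alternatives, and between 3.48 and 3.82 with each library left out in turn. Of the 8 other members tested, 0 passed under 17 of 18 alternatives and 1 (*Mc5r*) with DESeq2. The number of genes within 1 Mb of *a* that passed, 1 in the report, was 3 with DESeq2, 0 with the fat marker covariate, 0 without cKO replicates 1, 2 and 3, and 1 to 3 with each library left out. It was 0 of 18 within 0.5 Mb, 2 of 74 (2.70%) within 2 Mb, and, in windows chosen after seeing the data, 10 of 141 (7.09%) within 5 Mb and 12 of 214 (5.61%) within 10 Mb, beside 5.34% of all genes. Of the 40 list genes, 8 passed, 3 did with the fat marker covariate, 2 without cKO replicates 1, 2 and 3, and 5 to 9 with each library left out. Over all genes the 889 calls became 1506 with DESeq2, 73 with the fat covariate, 35 without cKO replicates 1, 2 and 3, and 393 to 1773 with each library left out. Calls that also passed 2-fold, 217, became 139 with CPM over 1, 35, 20, and 134 to 320 in the last 3 settings. Members that had not passed turned sign with the fat marker covariate (*Itch* 0.066, *Eif2s2* 0.063, *Mc4r* 0.41, *Pomc* -0.17, *Atrn* 0.0017) and without cKO replicates 1, 2 and 3 (*Itch* 0.062, *Eif2s2* 0.065, *Mc4r* 0.38, *Pomc* -0.32, *Atrn* 0.0054). With each library left out, *Pomc* ranged from -0.017 to 0.34, *Mc4r* from -0.50 to 0.10 and *Eif2s2* from -0.077 to 0.021. *Pomc* was not tested with CPM over 1. The cause of these changes was not tested. Fewer libraries or genes entered some fits, but the fit with the fat marker covariate kept every library and all 16658 genes. The fat sum was high only in cKO replicates 1, 2 and 3, so the genotype term of that fit rests largely on cKO replicate 4.

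Control and cKO libraries share replicate numbers 1 to 4, and deviations of same-numbered libraries correlated at 0.02, 0.11, -0.0035 and 0.19. Libraries of different numbers were not compared in this way. These values therefore cannot decide whether same-numbered mice shared a litter or a batch. With the replicate number as a block, 2 genes within 1 Mb passed, and 1240 genes in all (253 also past 2-fold). Without the block 889 genes passed in all (217 also past 2-fold).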
